A study of Mus musculus with 6 samples.

Results

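The mitosis and kinetochore genes examined here are 38 mouse genes whose products drive entry into mitosis, build the kinetochore and the spindle, watch over chromosome attachment and divide the cell. The list was drawn up with earlier results of these data known, and 37 of the 38 had a probe set paired with that gene symbol alone, out of 18193 such genes on the array. Ccnb1 (cyclin B1) was not analysed here. Where several probe sets (groups of array probes for 1 transcript) were paired with a gene, the one brightest on average over the 6 arrays, on the log2 scale, stood for it. All 37 genes lay above the floor of 63.7 signal units, the median of all values, on each of the 6 arrays.

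RNA came from melan-a, a line of melanocytes (pigment cells) derived from epidermal melanoblasts of C57BL/6 mouse embryos. Each group was measured on 1 array: melan-a cells transduced with delta-BRAF-ER (active BRAF kinase under the control of tamoxifen), with BRAF activated together with ectopic SNAIL2, with ZEB1, with ZEB2 or with TWIST1, with BRAF activated alone (BRAF-on), and with BRAF not activated (BRAF-off). All 6 groups come from the same line, and the labels give neither the time after induction nor the dose of tamoxifen. The genotype labels and titles of the single arrays name neither tamoxifen nor a construct, so the drug and BRAF activation cannot be told apart. With 1 array per group no difference was tested, every ratio describes 2 arrays, and the number of arrays limits the precision. The study set out to measure how each of the 4 embryonic transcription factors acts on genes that respond to BRAF.

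Mitotic genes are transcribed in waves late in the cell cycle. The transcription factor FOXM1, the MYB family and the MuvB complex drive them in dividing cells, while the DREAM complex, which joins MuvB to an RB family protein, holds them down in resting cells. Their products then act in order: cyclins with CDK1 start mitosis, condensins compact the chromosomes, kinetochores attach them to the spindle, the checkpoint waits for attachment, and the anaphase-promoting complex (APC/C) ends mitosis before cytokinesis. In bulk RNA, fewer dividing cells and less mRNA per dividing cell cannot be told apart.

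Probe sets for the introduced factors do not settle the labels: Snai2 was at a signal of 3142 on the array labelled SNAIL2 against 4175 in BRAF-on, Zeb1 at 109 on the array labelled ZEB1 against 134, Zeb2 at 1132 on the array labelled ZEB2 against 806, and Twist1 at 278 on the array labelled TWIST1 against 338. "With SNAIL2" and the like therefore mean the array so labelled. Of 10 melanocyte markers, 9 were at or above the floor with SNAIL2, ZEB1 and ZEB2 and in BRAF-on and BRAF-off, Ednrb being the exception, but 3 were with TWIST1. Their levels differed between the arrays: 7 of the 9 compared were at least 2-fold lower with ZEB1 than in BRAF-on (median log2 ratio -1.49), while 6 of 9 were at least 2-fold higher with SNAIL2 (median 1.34). The 10 markers summed to 28359 signal units with ZEB1, 139349 with SNAIL2, 115831 with ZEB2 and 4969 with TWIST1, against 67799 in BRAF-on and 91562 in BRAF-off. The part of these marker differences in the mitotic ratios was not tested. Keratinocyte markers summed to between 121 and 236 signal units over 7 genes, with at most 1 at the floor on any array. Probe sets for the 3' end of Actb gave 1.36 to 1.54 times the signal of those for its 5' end, and for Gapdh 0.792 to 0.839 times. The array labelled SNAIL2 gave 1.44 for Actb and that labelled ZEB1 1.43. For Gapdh SNAIL2 was at 0.839, beside BRAF-off at 0.839 and ZEB2 at 0.838, and ZEB1 at 0.792, beside TWIST1 at 0.793.

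The clearest differences lay on the arrays labelled ZEB1 and SNAIL2. With ZEB1, all 37 genes were lower than in BRAF-on and 29 were at least 2-fold lower (78.4%), against 3.93% of all 11614 genes compared. Of those 11614, 5030 had a log2 ratio below 0. With SNAIL2, 6 of the 37 were at least 2-fold lower (16.2%), against 6.42% of 11416 genes: Cenpe, Cenpf, Smc4, Mki67, Smc2 and Hmmr. The median log2 ratio over the 37 was -1.29 with ZEB1 and -0.34 with SNAIL2, where all genes compared had medians of 0.07 and 0.06. With neither factor was any of the 37 at least 2-fold higher, against 4.49% of all genes with ZEB1 and 5.61% with SNAIL2. These comparisons, and those of ZEB2 and TWIST1, share the single BRAF-on array.

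**Figure D1:**
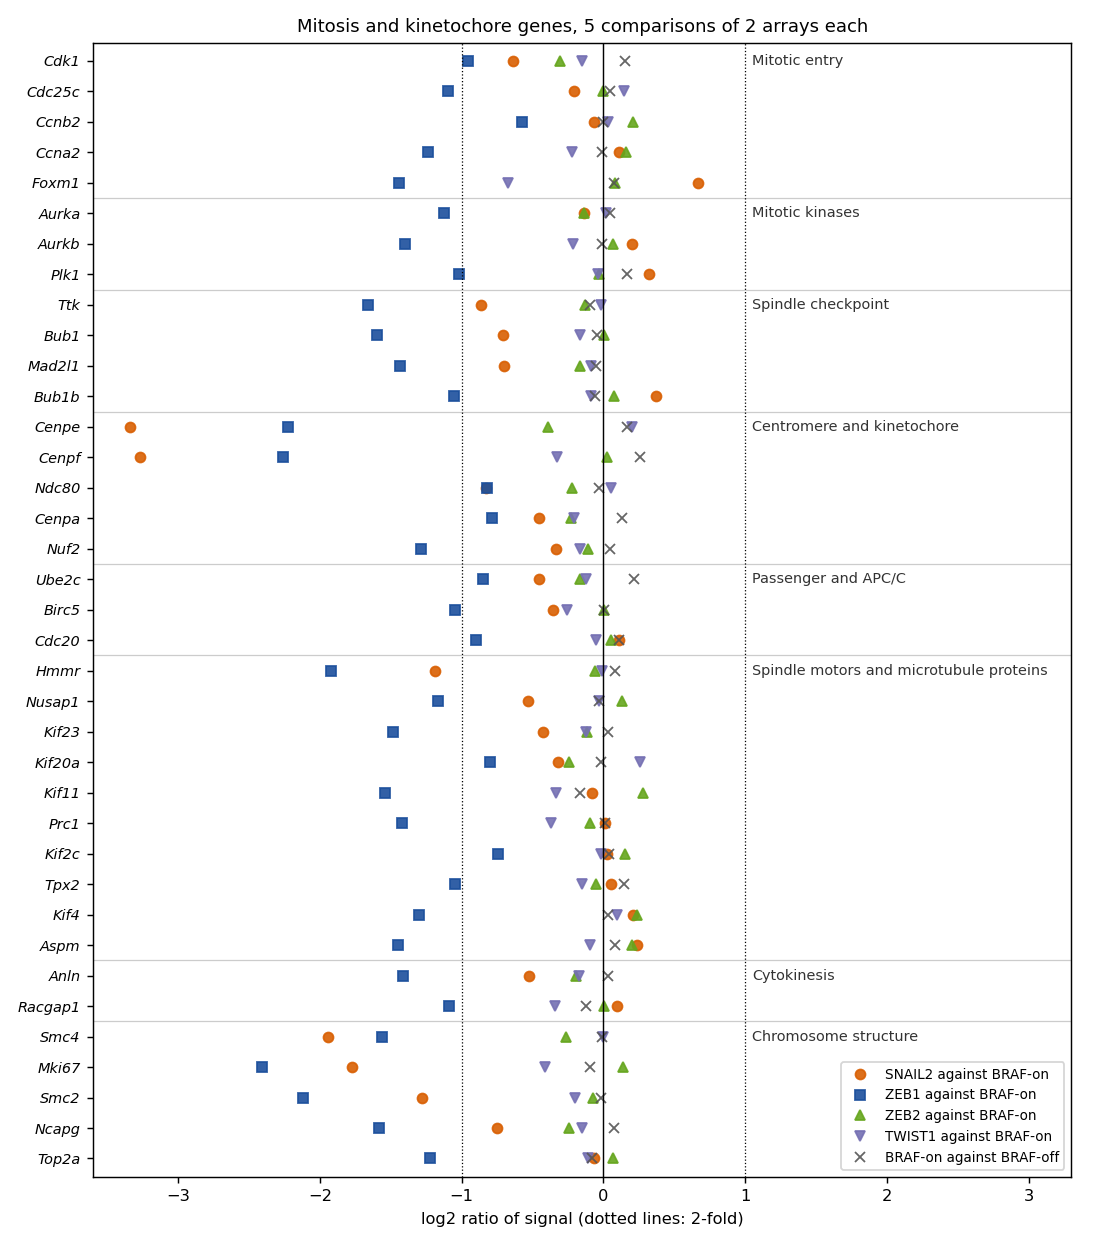
Log2 ratio of signal (x axis) for each of the 37 genes (rows, grouped by role), 1 point per comparison of 2 arrays, with dotted lines at 2-fold. With ZEB1 every point lies left of 0 (-2.41 to -0.58), with SNAIL2 the points spread from -3.34 to 0.66, and the other comparisons stay between -0.68 and 0.28.

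On the other 4 arrays the 37 genes kept close levels. The highest of ZEB2, TWIST1, BRAF-on and BRAF-off stood above the lowest by 1.06-fold to 1.69-fold, with a median of 1.17-fold. Over all 12040 genes that reached the floor on at least 1 array the median was 1.31-fold, and 90.3% were under 2-fold. Those genes include some below the floor on other arrays, unlike the 37, so the 2 medians are not for genes of like signal. The array labelled ZEB1 was the lowest of the 6 for 33 of the 37 genes (20.0% of all genes), and that labelled SNAIL2 for the other 4, Cenpe, Cenpf, Smc4 and Ndc80 (25.7% of all genes).

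Promoter sequence was available from RefSeq (build GRCm38.p6) for 30 of the 37 genes. The 150 bases before the annotated start are shown for the 4 genes with the lowest SNAIL2 ratios and a promoter in the table, and then for the 4 lowest with ZEB1 among genes less than 2-fold lower with SNAIL2, so that the 2 sets can be read side by side. Capitals mark 3 motifs searched on both strands: TTTGAA or TTCGAA, the cell cycle genes homology region that MuvB binds; CCAAT, the box bound by NF-Y; and CAGGTG, the E-box that SNAIL and ZEB proteins are known to bind. None of these motifs contains another, and each sequence is read 5′ to 3′ along its gene, so a motif on the opposite strand appears as TTCAAA or ATTGG.

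Cenpe, chr3:135212413-135212562, plus strand: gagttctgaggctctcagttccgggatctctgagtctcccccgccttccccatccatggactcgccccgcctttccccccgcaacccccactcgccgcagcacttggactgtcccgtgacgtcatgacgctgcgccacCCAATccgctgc

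Cenpf, chr1:189688087-189688236, minus strand: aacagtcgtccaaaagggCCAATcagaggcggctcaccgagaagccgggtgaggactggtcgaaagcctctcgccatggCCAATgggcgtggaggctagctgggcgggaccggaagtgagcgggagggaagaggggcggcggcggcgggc

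Mki67, chr7:135716380-135716529, minus strand: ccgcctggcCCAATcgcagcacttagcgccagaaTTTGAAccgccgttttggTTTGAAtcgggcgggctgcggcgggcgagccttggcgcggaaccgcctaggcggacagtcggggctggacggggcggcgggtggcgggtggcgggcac

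Smc2, chr4:52439071-52439220, plus strand: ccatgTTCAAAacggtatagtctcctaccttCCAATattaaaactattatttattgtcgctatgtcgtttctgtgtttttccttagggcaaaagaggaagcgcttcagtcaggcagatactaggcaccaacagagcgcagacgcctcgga

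Ttk, chr9:83834539-83834688, plus strand: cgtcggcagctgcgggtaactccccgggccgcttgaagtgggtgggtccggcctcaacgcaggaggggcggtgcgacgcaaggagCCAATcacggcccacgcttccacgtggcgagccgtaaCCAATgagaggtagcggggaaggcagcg

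Bub1, chr2:127831860-127832009, minus strand: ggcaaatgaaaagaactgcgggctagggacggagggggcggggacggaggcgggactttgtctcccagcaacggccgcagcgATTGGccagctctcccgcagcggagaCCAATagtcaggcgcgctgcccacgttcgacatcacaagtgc

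Ncapg, chr5:45669775-45669924, plus strand: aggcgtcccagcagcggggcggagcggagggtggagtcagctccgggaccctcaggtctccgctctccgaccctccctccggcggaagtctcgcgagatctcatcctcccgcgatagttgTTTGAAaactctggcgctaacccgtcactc

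Kif11, chr19:37376232-37376381, plus strand: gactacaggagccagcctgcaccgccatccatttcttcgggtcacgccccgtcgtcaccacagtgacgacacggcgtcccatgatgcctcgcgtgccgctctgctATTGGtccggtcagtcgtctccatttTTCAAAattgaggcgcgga

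In windows of this length, CCAAT occurred in 22 of the 30 genes (73.3%), against 24.5% of all 32851 promoters in the table. A gene counted when any of its promoters held the motif, while the share of all promoters counts each promoter singly, so these shares are not counted alike. TTTGAA or TTCGAA occurred in 10 of the 30 (33.3%), against 9.70% of all promoters, and both this motif and CCAAT in 8 (26.7%), against 2.43%. CAGGTG occurred in none of the 30, against 10.6% of all promoters. Among genes at least 2-fold lower with SNAIL2, CCAAT was in 5 of 5 with a promoter and TTTGAA or TTCGAA in 2 of 5. Among the 18 with a promoter that were at least 2-fold lower with ZEB1 and not with SNAIL2, CCAAT was in 12 (66.7%) and TTTGAA or TTCGAA in 4 (22.2%). Among the 7 with a promoter that were less than 2-fold lower with either factor, CCAAT was in 5 and TTTGAA or TTCGAA in 4. A match describes letters in a window and is not a binding site.

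Centromere and kinetochore genes held the lowest ratios with SNAIL2. Cenpe, the kinesin that carries chromosomes to the spindle equator, had a signal of 172 with SNAIL2, 374 with ZEB1, 1332 with ZEB2, 2009 with TWIST1, 1750 in BRAF-on and 1559 in BRAF-off. Its level with SNAIL2 was thus 10.1-fold under BRAF-on (log2 ratio -3.34) and its level with ZEB1 4.68-fold under it (-2.23), while the other 4 arrays lay within 1.51-fold of each other. Cenpf, a large coiled-coil protein of the outer kinetochore, had 287 with SNAIL2, 578 with ZEB1, 2815 with ZEB2, 2206 with TWIST1, 2771 in BRAF-on and 2317 in BRAF-off. The same pair of arrays was low, by 9.64-fold with SNAIL2 (-3.27) and 4.79-fold with ZEB1 (-2.26).

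The rest of this group stayed under 2-fold with SNAIL2. Ndc80, whose product grips the microtubule ends, had 441 with SNAIL2 and 445 with ZEB1, against 675 to 814 on the other 4 arrays. The 2 low arrays were closer for this gene than for any other of the 37, at 1.78-fold and 1.76-fold under BRAF-on. Nuf2, its partner in the NDC80 complex, was at 2066 with SNAIL2 and 1067 with ZEB1, against 2607 in BRAF-on. Its log2 ratio was thus past 2-fold with ZEB1 (-1.29) and well short of it with SNAIL2 (-0.34). Cenpa, the histone H3 variant that marks centromeres, stood at -0.46 with SNAIL2 and -0.79 with ZEB1.

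Chromosome structure genes supplied 3 of the 6 genes at least 2-fold lower with SNAIL2, and all 5 were at least 2-fold lower with ZEB1. Smc4, an ATPase core subunit of condensin, had 1993 with SNAIL2, 2598 with ZEB1, 6367 with ZEB2, 7660 with TWIST1, 7664 in BRAF-on and 7700 in BRAF-off. Smc2, the other core ATPase, had 2109 with SNAIL2, 1175 with ZEB1, 4868 with ZEB2, 4453 with TWIST1, 5117 in BRAF-on and 5178 in BRAF-off. Both condensin cores were therefore low on the same pair of arrays, Smc4 lowest with SNAIL2 (3.85-fold under BRAF-on, and 2.95-fold with ZEB1) and Smc2 lowest with ZEB1 (4.36-fold, and 2.43-fold with SNAIL2). Mki67, the proliferation marker Ki-67 that coats mitotic chromosomes, had 2107 with SNAIL2, 1357 with ZEB1, 7911 with ZEB2, 5422 with TWIST1, 7199 in BRAF-on and 7677 in BRAF-off. Its ZEB1 ratio, -2.41, was the lowest of the 37, and its SNAIL2 ratio was -1.77.

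Ncapg, a regulatory subunit of condensin, was at 881 with SNAIL2 and 493 with ZEB1, against 1480 in BRAF-on (log2 ratios -0.75 with SNAIL2 and -1.59 with ZEB1). Top2a, the topoisomerase that untangles sister DNA, had 7959 with SNAIL2, 3573 with ZEB1, 8730 with ZEB2, 7745 with TWIST1, 8341 in BRAF-on and 8822 in BRAF-off. Only its ZEB1 value left the range of the others by more than 2-fold (2.33-fold under BRAF-on), and its SNAIL2 ratio was -0.07.

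**Figure D2:**
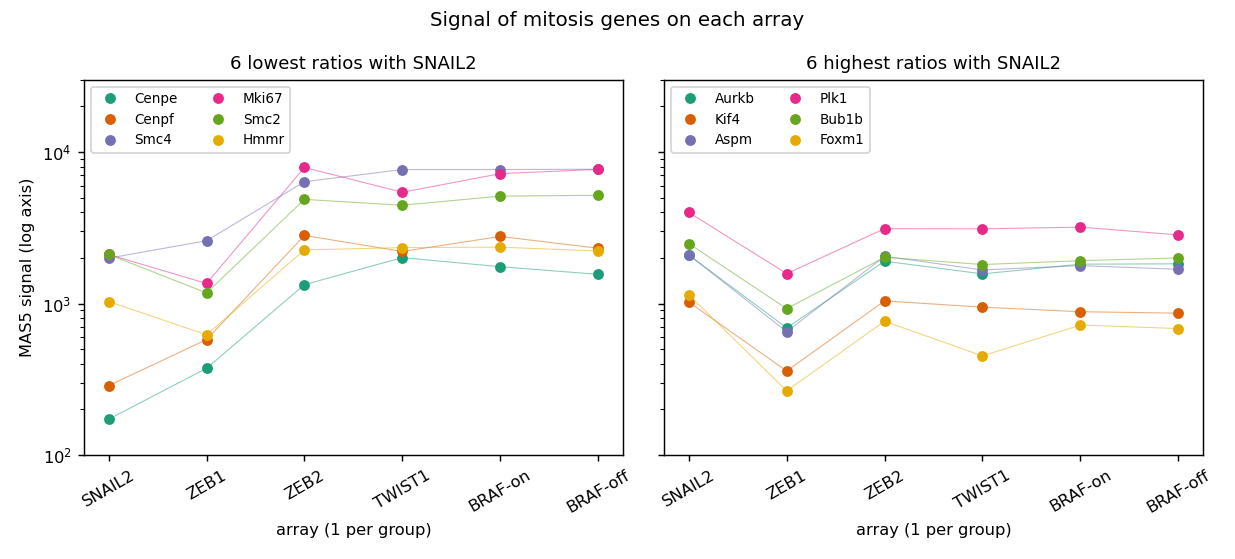
MAS5 signal (y axis, log scale) on each of the 6 arrays (x axis, 1 array per group) for the 6 genes with the lowest and the 6 with the highest SNAIL2 ratios, with points joined for reading only. On the left both the SNAIL2 and the ZEB1 arrays are low (Cenpe at 172 and 374, against 1750 in BRAF-on), while on the right the ZEB1 array is the lowest for each gene (Plk1 at 1576, against 3193 in BRAF-on) and the SNAIL2 array lies above BRAF-on.

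Of the 5 mitotic entry genes 3 were at least 2-fold lower with ZEB1, as were all 3 mitotic kinases, and none of these 8 genes was with SNAIL2. Foxm1, the transcription factor that activates many of these genes, had 1141 with SNAIL2, 265 with ZEB1, 764 with ZEB2, 451 with TWIST1, 720 in BRAF-on and 684 in BRAF-off. It had the highest SNAIL2 ratio of the 37 (0.66), the lowest TWIST1 ratio (-0.68), and 2.72-fold less signal with ZEB1 than in BRAF-on. Plk1, a kinase of mitotic entry and spindle assembly, had 3991 with SNAIL2, 1576 with ZEB1, 3119 with ZEB2, 3113 with TWIST1, 3193 in BRAF-on and 2839 in BRAF-off. Aurkb, the kinase that corrects faulty attachments, had 2089 with SNAIL2, 690 with ZEB1, 1903 with ZEB2, 1569 with TWIST1, 1819 in BRAF-on and 1828 in BRAF-off. For both kinases the SNAIL2 array was the highest of the 6 and the ZEB1 array the lowest, at log2 ratios of -1.02 for Plk1 and -1.40 for Aurkb.

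Among the cyclins and their regulators, Ccna2 (cyclin A2) stood at a log2 ratio of 0.11 with SNAIL2 and -1.24 with ZEB1, and Cdc25c, the phosphatase that activates CDK1, at -0.21 with SNAIL2 and -1.09 with ZEB1. Another Cdc25c probe set, at 567 in BRAF-on, was short of 2-fold with ZEB1 (-0.84). Aurka, a centrosomal kinase, stood at -0.14 with SNAIL2 and -1.12 with ZEB1. Cdk1 itself had 5938 with SNAIL2 and 4761 with ZEB1, against 9222 in BRAF-on (-0.64 with SNAIL2 and -0.95 with ZEB1). Ccnb2 (cyclin B2) was the closest of the 37 to BRAF-on with ZEB1, at 2478 against 3698 in BRAF-on (-0.58), and was at -0.07 with SNAIL2.

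The 4 spindle checkpoint genes were all at least 2-fold lower with ZEB1, and none was with SNAIL2. Ttk, the kinase MPS1 that starts the checkpoint signal, had 633 with SNAIL2, 364 with ZEB1, 1049 with ZEB2, 1136 with TWIST1, 1150 in BRAF-on and 1226 in BRAF-off. Bub1, a kinase at the kinetochore, had 1817 with SNAIL2, 979 with ZEB1, 2967 with ZEB2, 2641 with TWIST1, 2966 in BRAF-on and 3065 in BRAF-off. Both were lower with SNAIL2 by less than 2-fold, at log2 ratios of -0.86 for Ttk, the nearest to 2-fold of the genes short of it, and -0.71 for Bub1, beside -0.70 for Mad2l1, which inhibits CDC20. Bub1b, which encodes BUBR1 and works in the same complex as Mad2l1, was above BRAF-on with SNAIL2 (0.37) and at -1.05 with ZEB1. Another bright Bub1b probe set was at -0.67 with ZEB1.

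Of 10 spindle motor and microtubule genes, 8 were at least 2-fold lower with ZEB1 and 1, Hmmr, with SNAIL2. Hmmr, a spindle assembly protein and hyaluronan receptor, had 1031 with SNAIL2, 622 with ZEB1, 2260 with ZEB2, 2339 with TWIST1, 2355 in BRAF-on and 2224 in BRAF-off. It was 2.28-fold lower with SNAIL2 and 3.79-fold lower with ZEB1, with the other 4 arrays within 1.06-fold. Aspm, a spindle pole protein, had 2096 with SNAIL2, 651 with ZEB1, 2050 with ZEB2, 1666 with TWIST1, 1780 in BRAF-on and 1682 in BRAF-off. Kif11, the kinesin that pushes the spindle poles apart, was at -0.08 with SNAIL2 and -1.54 with ZEB1. Near 0 with SNAIL2 were also Prc1, which bundles midzone microtubules (0.01), and Tpx2, the activator of Aurora A (0.05), with ZEB1 ratios of -1.42 for Prc1 and -1.05 for Tpx2. The chromosome-bound kinesin Kif4 was at 0.21 with SNAIL2 and -1.30 with ZEB1. Kif23, the motor of the centralspindlin complex, was at -0.42 with SNAIL2 and -1.48 with ZEB1, and Nusap1, a microtubule-bundling protein, at -0.53 with SNAIL2 and -1.17 with ZEB1. The microtubule depolymerase Kif2c (0.02 with SNAIL2, -0.74 with ZEB1) and the cytokinesis kinesin Kif20a (-0.32 with SNAIL2, -0.80 with ZEB1) stayed under 2-fold with both factors.

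Cytokinesis genes were 2-fold lower with ZEB1 in both cases, Anln (anillin, of the contractile ring) at -1.42 and Racgap1 (the other centralspindlin subunit) at -1.09, with SNAIL2 ratios of -0.52 for Anln and 0.10 for Racgap1. Birc5 (survivin, of the chromosomal passenger complex) was at -0.36 with SNAIL2 and -1.05 with ZEB1. The 2 genes of APC/C-driven proteolysis stayed short of 2-fold with ZEB1, the activator Cdc20 at -0.90 and the ubiquitin-conjugating enzyme gene Ube2c at -0.85, with SNAIL2 ratios of 0.11 for Cdc20 and -0.45 for Ube2c. In all, 8 genes were lower with ZEB1 by less than 2-fold, from Ccnb2 at -0.58 to Cdk1 at -0.95, and the nearest gene past 2-fold was Plk1 at -1.02. With SNAIL2, 19 genes were lower by less than 2-fold and 12 were higher by less than 2-fold. A log2 ratio below 0 thus held for 25 of the 37, against 5199 of all 11416 genes compared.

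Set against each other directly, the array labelled ZEB1 had 14 of the 37 genes at least 2-fold below that labelled SNAIL2 (8.16% of all 11648 genes compared) and 2 at least 2-fold above it (10.4%). With each array centred on its median, the counts were 19 and 0. The widest gap was that of Foxm1 (log2 ratio -2.11), followed by Aspm (3.22-fold) and Aurkb (3.03-fold). The 2 genes higher with ZEB1 were Cenpe (2.17-fold) and Cenpf (2.01-fold), both under 2-fold with centred arrays.

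Further probe sets of the same genes gave a second reading of the same RNA, not a replicate. The second Cenpe probe set was 8.34-fold lower with SNAIL2 than in BRAF-on, and the other Smc4 probe sets 7.23-fold and 5.60-fold lower, more than the one used (3.85-fold). Over the 5 genes with such probe sets among the 6 at least 2-fold lower with SNAIL2, all 11 further probe sets were below BRAF-on and 7 were at least 2-fold below it. Both further Cenpf probe sets were dim, at 92.4 and 64.5 in BRAF-on and 24.7 and 24.9 with SNAIL2, below the floor, so the lower bounds they allow are 1.45-fold and 1.01-fold. Mki67 has a single probe set here. With ZEB1, 35 of 36 further probe sets had the sign of the one used, the exception being a dim Bub1b probe set. For 20 of the 29 genes at least 2-fold lower with ZEB1 there were 31 such probe sets, 22 of them at least 2-fold lower. A bright Bub1b probe set, at 1532 in BRAF-on and 965 with ZEB1, stayed short of 2-fold (-0.67). Foxm1 was above BRAF-on with SNAIL2 on all 3 of its probe sets at the floor, at log2 ratios of 0.66, 0.62 and 0.52. With SNAIL2 25 of 36 further probe sets had the sign of the one used, and those of opposite sign included 1 of Bub1 (0.03) and 1 of Cenpa (0.30).

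**Figure D3:**
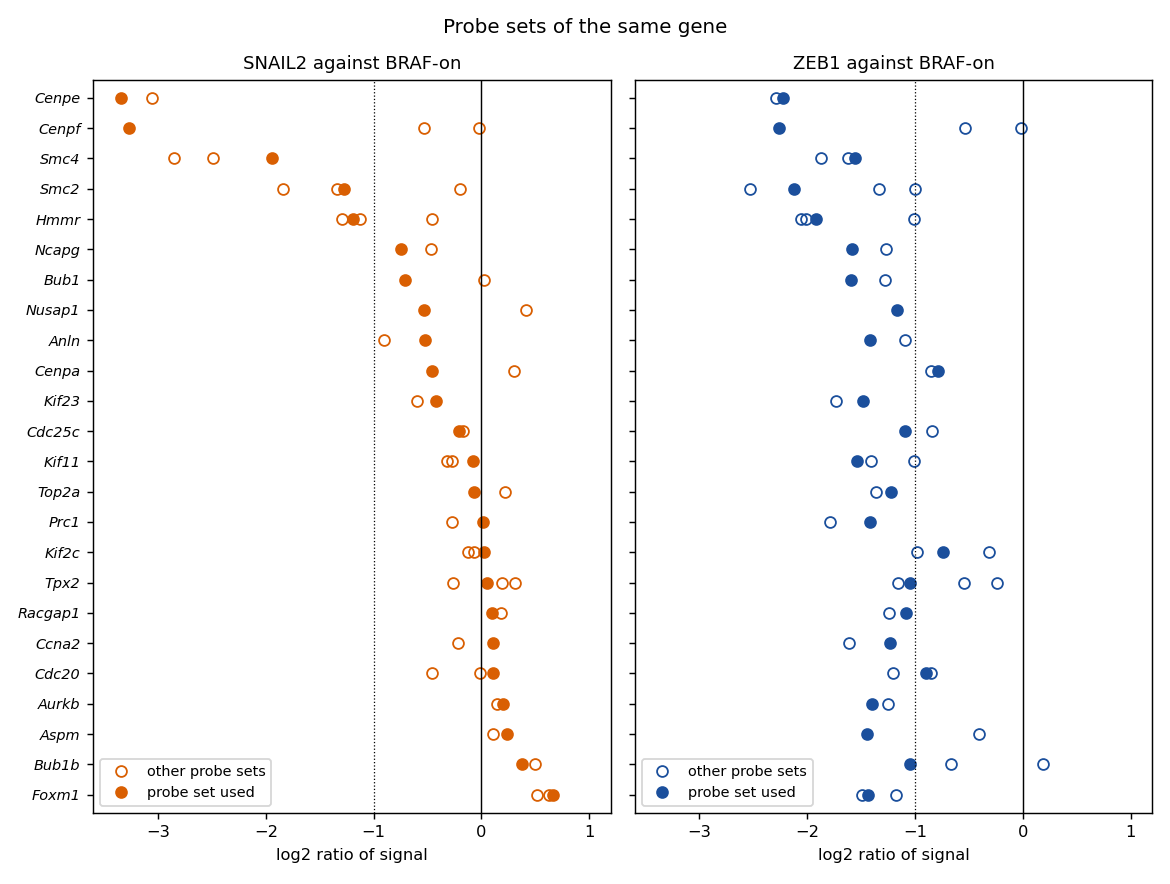
Log2 ratio against BRAF-on (x axis) of each probe set with an array at the floor, for genes with several probe sets (rows, ordered by the SNAIL2 ratio of the probe set used), with SNAIL2 on the left and ZEB1 on the right and a dotted line at 2-fold lower. Smc4 has all 3 probe sets past 2-fold with SNAIL2 (-2.85, -2.49 and -1.94), while the 2 dim Cenpf probe sets, whose signal with either factor is below the floor, sit at -0.54 and -0.02.

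Measures of the arrays themselves differed too. Poly-A control RNAs, which are added to the sample before amplification, had a summed signal of 32497 with SNAIL2, 17763 with ZEB1, 17640 with ZEB2, 11102 with TWIST1, 12308 in BRAF-on and 15453 in BRAF-off. The SNAIL2 array thus had 2.64 times, the ZEB1 array 1.44 times and the ZEB2 array 1.43 times the BRAF-on value. The summed controls added at hybridisation were 0.968 to 1.17 times the BRAF-on value on the 5 arrays other than BRAF-on. Macrophage and leukocyte markers summed to 1210 with ZEB1, 745 with TWIST1, 703 in BRAF-off, 689 with ZEB2, 652 with SNAIL2 and 598 in BRAF-on. On each of the 6 arrays 5 of 8 were below the floor. Cd68 was at 466 with ZEB1, 258 with SNAIL2 and 128 in BRAF-on. All 3 markers compared were above BRAF-on with ZEB1. With SNAIL2 only Cd68 was, and the other 2 were below BRAF-on (the lowest at -0.34). Fibroblast markers summed to 12726 with ZEB1 and 10200 with SNAIL2, against 8800 in BRAF-on, with 7 of 9 at the floor with ZEB1 and 6 of 9 with SNAIL2 and in BRAF-on. The same markers summed to 21738 with TWIST1, 10179 in BRAF-off and 9097 with ZEB2. Their part in the mitotic ratios was not tested.

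Among the 37 genes, longer genomic loci went with lower ZEB1 ratios (Spearman's rho -0.51) and less so with SNAIL2 ratios (-0.24), as a description over 37 genes on shared arrays. Over all genes compared the same coefficients were -0.11 with ZEB1 and 0.08 with SNAIL2. All 7 genes with loci of 40 to 80 kb were at least 2-fold lower with ZEB1, and 4 of the 8 with loci up to 10 kb. Over all genes in these bins 5.35% and 2.66% were. With SNAIL2, 3 of the 7 and 0 of the 8 were, against 6.66% and 7.62% of all genes in these bins.

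A wider list of mitosis genes that are not among the 38 had the same order. Of 96 compared, 44 were at least 2-fold lower with ZEB1 (45.8%, against 3.93% of all genes). None was at least 2-fold higher (4.49% of all genes). Their median log2 ratio was -0.97. With SNAIL2, 12 of 96 were at least 2-fold lower (12.5%, against 6.42% of all genes), with a median of -0.09. At least 2-fold higher were 2 (2.08%, against 5.61%), Cit at 1.30 and Depdc1b at 1.32. The lowest with SNAIL2 were Kif20b, a kinesin of cytokinesis, at 241 with SNAIL2 against 1781 in BRAF-on (-2.88), and Knl1, the scaffold of the outer kinetochore, at 87.9 with SNAIL2 against 359 in BRAF-on (-2.03). Kif20b (-2.54) and Knl1 (-1.60) were low with ZEB1 as well. Kif18a, which damps chromosome movements, was at 159 with SNAIL2 against 450 in BRAF-on. Of 12 further Cenp genes in this list, 3 were at least 2-fold lower with SNAIL2, against 6.42% of all genes. These were Cenpq (-1.49), Cenpk (-1.39) and Cenpw (-1.29), and the other 9 ran from -0.55 to 0.63. Zwint, a KNL1-binding protein, and Anapc10, an APC/C subunit, were at least 2-fold lower with SNAIL2 (Zwint -1.18, Anapc10 -1.20) and above BRAF-on with ZEB1 (Zwint 0.24, Anapc10 0.11).

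Of 30 regulators of cell cycle genes, 7 were at least 2-fold lower with ZEB1 (23.3%, against 3.93% of all genes). At least 2-fold higher were 3 (10%, against 4.49%). The lower ones were E2f1, E2f2, E2f7 and E2f8, Mybl1, the B-MYB gene Mybl2, and the MuvB subunit gene Lin9 (-1.01). The higher ones were the CDK inhibitor genes Cdkn1c (1.67), Cdkn1a (1.31), which encodes p21, and Cdkn2b (1.04). With TWIST1, where none of the 37 mitosis genes was 2-fold lower, E2f1 (-1.01) and E2f2 (-1.25) were lower and Cdkn1c (1.52) higher by at least 2-fold as well. The shares of the 30 regulators were 6.67% lower and 3.33% higher with TWIST1, against 2.02% and 2.03% of all genes. With SNAIL2 none of the 30 was 2-fold lower (6.42% of all genes), and 1 was at least 2-fold higher (3.33%, against 5.61%). That was Rbl2, the RB family gene for p130 of the DREAM complex, at 1.01. Mybl2 had 871 with SNAIL2, 197 with ZEB1, 458 with ZEB2, 311 with TWIST1, 478 in BRAF-on and 522 in BRAF-off, a pattern in which the SNAIL2 array was the highest and the ZEB1 array the lowest. S phase genes, which act before mitosis, had 23 of 37 at least 2-fold lower with ZEB1 (median -1.11), against 3.93% of all genes. With SNAIL2 1 of 37 (2.70%) was at least 2-fold lower, against 6.42% of all genes, and 1 at least 2-fold higher (median 0.12). These were Rpa3 (-1.26) and Chaf1b (1.28), named here after their values were seen.

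**Figure D4:**
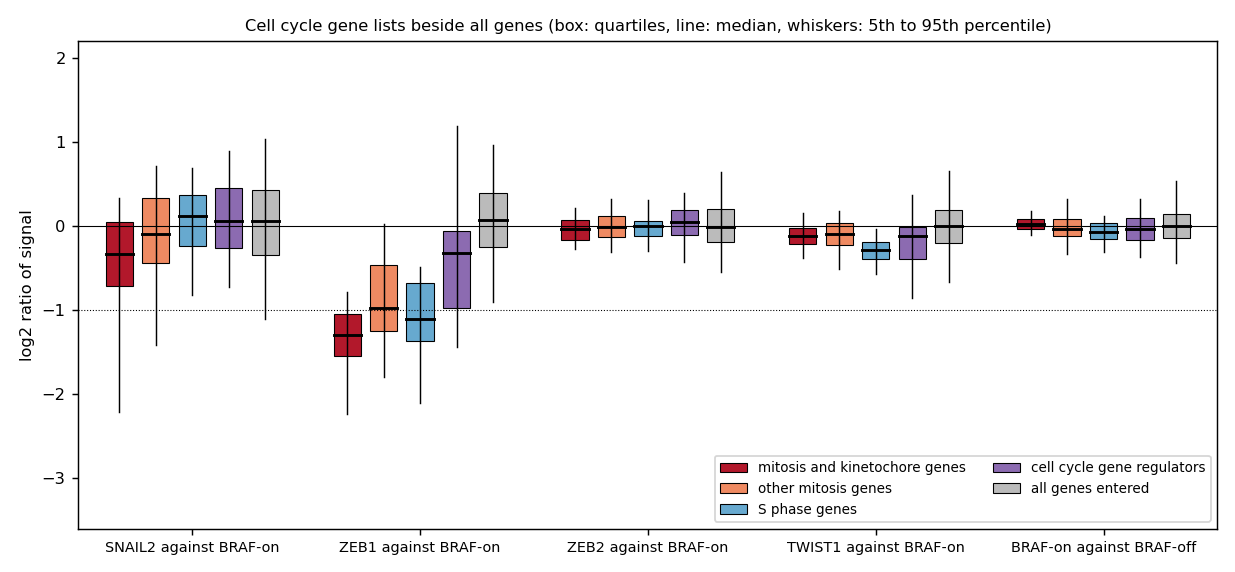
Log2 ratio of signal (y axis) for the 37 mitosis and kinetochore genes, the other gene lists and all genes compared, in 5 comparisons of 2 arrays (x axis), as medians (lines), quartiles (boxes) and 5th to 95th percentiles (whiskers), with a dotted line at 2-fold lower. With ZEB1 the medians of the 37 genes (-1.29), the other mitosis genes (-0.97) and the S phase genes (-1.11) lie below that of all genes (0.07), while with SNAIL2 the median of the 37 is -0.34 and that of S phase genes 0.12.

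With ZEB2 none of the 37 genes was at least 2-fold lower (0.583% of all 11322 genes) or higher (1.76%), and their log2 ratios ran from -0.39 for Cenpe to 0.28 for Kif11 with a median of -0.03. With TWIST1 none was 2-fold lower (2.02% of 11334 genes) or higher (2.03%), and 30 of 37 were below BRAF-on, as were 5624 of the 11334. The median of the 37 was -0.12, and 0.07 when arrays were centred on their medians. That centring moved the median of all genes from 0.003 to 0.19. The lowest with TWIST1 were Foxm1 (-0.68), Mki67 (-0.41) and Prc1 (-0.37). A dimmer Cenpa probe set was at 203 with TWIST1 and 432 in BRAF-on, whereas the Cenpa probe set used was at 4829 with TWIST1 and 5572 in BRAF-on.

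With BRAF activation alone none of the 37 genes was 2-fold apart in either direction (0.384% of all 11200 genes lower and 1.04% higher). Their log2 ratios of BRAF-on over BRAF-off ran from -0.16 for Kif11 to 0.26 for Cenpf, with a median of 0.03 that became -0.17 when arrays were centred. The median of all genes moved from -0.002 to -0.20 with that centring. Mki67 was at 7199 in BRAF-on and 7677 in BRAF-off, and Top2a at 8341 in BRAF-on and 8822 in BRAF-off.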

How the data were processed

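Expression was measured on 6 Affymetrix mouse arrays, 1 per group. The authors deposited linear signal intensities, computed with MAS5 in Affymetrix Expression Console 1.1 according to the submitters' processing notes. Amplification from total RNA used an in vitro transcription kit primed at the 3' end, per the labels' protocols. The mean of each array without its highest and lowest 2% was 500.003, so arrays came scaled alike. No detection calls were used.

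Probe sets with 1 gene symbol in the platform annotation (34945) were kept, and symbols checked by Entrez number against RefSeq (34741 found). Log2 ratios of 2 arrays were taken without further normalization. Values under the floor of 63.7 were raised to it, a gene entered where at least 1 of the 2 arrays reached it, and a gene was counted at 2-fold. No test was possible with 1 array per group. Ratio and counting steps were tested on simulated arrays. Members, lists and settings were chosen with earlier results of these data known. Any of the listed genes may be named, members of the other lists where they were at least 2-fold apart, and the introduced factors. Protein length, planned for a description of the ratios, was not used here and genomic locus length took its place after the data were seen. The alternatives tried were quantile normalization, centring, 4 other floors or pseudocounts, 2 probe set rules, 3-fold, and BRAF-off in place of BRAF-on. Python 3.11.15 was used with numpy 2.4.6, pandas 2.3.3, scipy 1.17.1 and matplotlib 3.10.9.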

Additional observations from a re-analysis of the deposited data

How the results depend on the processing

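With 1 array per group the counts and ratios carry no error. Under the alternatives to 2-fold calling, other than a 3-fold size, the genes at least 2-fold lower with SNAIL2 numbered 5 or 6 and those with ZEB1 20 to 29, and no gene of the 37 counted at 2-fold changed sign. The low end for ZEB1 came from dropping probe sets marked as matching several transcripts, which leaves 28 of the 37 genes. At 3-fold, 4 were lower with SNAIL2 and 8 with ZEB1, and between ZEB1 and SNAIL2 3 were lower and 0 higher. Of the genes lower with SNAIL2, 5 of 6 stayed so under every alternative at 2-fold, and 21 of 29 did with ZEB1, counting for each alternative the genes that had a value. Those that did not with ZEB1 were Aspm, Bub1b, Cdc25c, Cenpf, Foxm1, Kif4, Plk1 and Tpx2. The exception with SNAIL2 was Cenpf, at -0.54 with the median of its probe sets, of which the dim ones lie at the floor. The 2 genes higher with ZEB1 than with SNAIL2 numbered 0 when arrays were centred, with the floor at the 75th percentile or as a pseudocount, and 1 when the median over a gene's probe sets was used. With TWIST1, 1 gene (Cenpa, -1.09) was at least 2-fold lower once those probe sets were dropped. Centring put the median of all genes at 0.19 with TWIST1, -0.20 for BRAF-on against BRAF-off and -0.11 for ZEB1 against SNAIL2. No paired analysis was possible because each group has 1 array.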
